A study of Mus musculus with 5 samples.

Results

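Genes of chromatin modifiers and remodellers were examined in muscle of the forelimb from E15.5 embryos of C57BL/6 mice. The comparison set 3 samples of Noggin-deficient embryos against 2 samples of wild type controls. The genes were taken by symbol, from families of histone methyltransferases, demethylases, acetyltransferases and deacetylases, remodelling complexes, chromatin readers, and enzymes that add or remove DNA methylation. The tables listed 41 such genes among 4743. The same symbol patterns match 180 protein-coding symbols in GENCODE M21, and the other genes of these families, among them Ezh2, Hdac9, Smarca4, Smarcd3, Crebbp, Kdm6b and Dnmt1, were not analysed here under those symbols. RefSeq gives such a symbol as the current name of 3 further listed genes, Myst4 (Kat6b), Suv420h2 (Kmt5c) and mKIAA1757 (Setd5), which the patterns did not take because the tables use the older names. All samples shared strain, stage and tissue. The labels give no Noggin allele, no sex and no batch, and do not say whether a sample was 1 embryo or a pool, so p-values measure only how these samples spread, and that spread may be technical.

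Noggin is an extracellular antagonist that captures bone morphogenetic proteins before they reach their receptors. Chromatin modifiers write, remove or read chemical groups on histones and DNA, and remodellers use ATP to slide or evict nucleosomes. In muscle precursors, acetyltransferases act with muscle transcription factors to open muscle genes, class IIa deacetylases hold MEF2 factors in check, and SWI/SNF complexes give access to muscle promoters. Many of these proteins are very large, and their transcripts are long.

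Promoter sequence is shown for 4 genes that stand for the patterns described below: Smarca1, which was higher in the Noggin-deficient samples under each scaling tried, Tet2 and Hdac4, which were lower under each, and Kmt2d, whose sign changed with the treatment of transcript length. The sequences are RefSeq windows of 250 bases that end just before the RefSeq start, on build GRCm38.p6, 5′ to 3′ in the direction of the gene. They hold no exon annotated by GENCODE. All 4 genes lie on the minus strand. The Smarca1, Tet2 and Hdac4 windows lie inside the gene as GENCODE spans it, which begins further upstream (at 47892974, 133545139 and 92195699). Only the Kmt2d window lies before the whole gene. Capitals mark matches, on either strand, to GGCGCC (a GC-rich element known to bind SMAD proteins) or GGGCGG (a GC box). In the Hdac4 window a match of each kind overlaps.
Smarca1, chrX:47892614-47892863: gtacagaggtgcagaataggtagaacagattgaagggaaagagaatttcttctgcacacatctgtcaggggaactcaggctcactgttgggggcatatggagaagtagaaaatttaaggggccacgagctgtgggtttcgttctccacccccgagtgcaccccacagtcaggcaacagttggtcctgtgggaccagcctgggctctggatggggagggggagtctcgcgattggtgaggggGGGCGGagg
Tet2, chr3:133544391-133544640: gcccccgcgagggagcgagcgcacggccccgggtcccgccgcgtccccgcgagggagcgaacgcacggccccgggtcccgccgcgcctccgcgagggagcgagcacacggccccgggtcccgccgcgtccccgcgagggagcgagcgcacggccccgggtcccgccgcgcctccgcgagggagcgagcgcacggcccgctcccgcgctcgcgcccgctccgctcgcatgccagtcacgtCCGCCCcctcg
Hdac4, chr1:92180342-92180591: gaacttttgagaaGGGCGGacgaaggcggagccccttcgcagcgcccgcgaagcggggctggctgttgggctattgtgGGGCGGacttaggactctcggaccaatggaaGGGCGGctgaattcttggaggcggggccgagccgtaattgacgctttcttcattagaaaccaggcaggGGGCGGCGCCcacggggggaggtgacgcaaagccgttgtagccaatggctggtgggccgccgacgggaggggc
Kmt2d, chr15:98871206-98871455: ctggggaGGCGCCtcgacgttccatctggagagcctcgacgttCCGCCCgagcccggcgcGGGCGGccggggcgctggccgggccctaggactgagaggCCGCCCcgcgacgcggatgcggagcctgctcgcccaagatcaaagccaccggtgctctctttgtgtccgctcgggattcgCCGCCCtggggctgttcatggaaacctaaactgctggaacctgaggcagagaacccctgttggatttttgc

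The Tet2 window was the richest of the 4 in CpG, with 51 CpG dinucleotides in 250 bases, against a median of 6 over 27025 promoters with such a window. Kmt2d had 26 and Hdac4 23 CpG dinucleotides, and Smarca1 had 6. GGGCGG occurred 4 times in the windows of Hdac4 and of Kmt2d and 1 time in those of Tet2 and Smarca1, and 32.9% of all windows hold it. GGCGCC occurred 1 time each in Hdac4 and Kmt2d, and 9.54% of all windows hold it. CAGCTG (an E-box of muscle regulatory factors), CCGGAAG (an ETS site) and TATAAA were found in none of these 4 windows, against 12.8%, 7.05% and 13% of all windows. These matches describe letters, not binding. Promoter windows were available for 32 of the 41 genes (78%), under the 80% set for a comparison, so promoter features were not compared between the 41 genes and others.

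The listed values are an expression signal in an unnamed unit, normalized by the authors. Levels are therefore compared here within a gene, or as sums of the same genes between samples. In such sums the genes with the highest values weigh most. Their sum was 92210 to 93695 in Noggin-deficient samples and 100792 to 102783 in the wild type libraries, and the depth is unknown. Nog itself had values of 0.49, 0.42 and 0.42 in Noggin-deficient samples and 2 and 1.99 in wild type. Nearly all listed genes differed between the groups: 98.2% had no overlap, and 98% of the 3913 tested genes were called, so the tables look like a set selected on this difference, by a rule that no source used here states. Of 14 skeletal muscle markers 10 were listed, all called lower, with summed values of 3763 to 3940 against 5522 to 5590 in wild type, while Myod1, Myog, Pax7 and Myh8 were not analysed here. Summed liver markers (8 of 8 listed) were 97.6 to 98 against 1.41 to 1.67, with Serpina1a, Fgb and Ahsg at 0 in a library. Summed erythroid markers (4 of 10) were 217 to 224 against 93.1 to 97.9, and summed epidermis markers (9 of 10) were 1182 to 1225 against 2854 to 2857. Summed neuron and Schwann cell markers (8 of 9) were 31.1 to 31.5 against 21 to 21.7, though of 7 tested 5 were higher and 2 lower. Summed markers of the S and G2/M phases (3 of 15) were 128 to 130 against 97.3 to 98.1. The part of these other tissues in the changes of chromatin genes was not tested, and in bulk tissue fewer cells of a type and less RNA per cell cannot be told apart.

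Most of the chromatin genes were lower in the Noggin-deficient samples at the deposited scaling, and the falls were small. Of 41 genes, 39 reached 0.5 in 2 or more libraries and were tested with limma on log2(value + 0.25), with Benjamini-Hochberg adjustment over all tested genes. If the listed genes were selected on this difference, these adjusted p-values do not control the share of false calls. All 39 passed at an adjusted p under 0.05, where 98% of all tested genes did, so passing says nothing particular about them. Of these, 29 (74.4%) were lower and 10 higher, against 60.1% lower and 37.9% higher among all tested genes. Their median log2 change was -0.279, beside -0.285 for all tested genes. The groups did not overlap for 41 of 41 genes, 29 lower and 12 higher, against 98.2% of all listed genes without overlap.

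At the deposited scaling the changes of chromatin genes ran from -0.64 for Arid5b to 0.85 for Phf11b on the log2(value + 0.25) scale, and the median size was 0.34, against 0.44 over all tested genes. On that scale 0 of the 39 changed over 2-fold, where 10.9% of all tested genes did. In plain values the means of Phf11b (0.55 and 0.205) and of the untested Phf21b (0.217 and 0.1) and Prdm12 (0.06 and 0) differed by more than that. Arid5b and Phf11b passed 1.5-fold in size, where 29.8% of all tested genes did. This count depended on the scaling. With median-of-ratios factors 10 genes passed 1.5-fold, the 10 that were higher, where 46.4% of all genes did, and with upper-quartile factors 6 passed, all higher, where 39.8% did. With the trend on transcript length removed 3 passed (Phf11b, Prdm6 and Smarca1), where 29.9% of all did, and with the longest transcript as the length 1 passed (Smarca1), where 28.9% did. By limma's test against a 1.5-fold change 0 of the 39 were called at an adjusted p under 0.05, where 14.5% of all tested genes were, and 0 had an unadjusted p under 0.05. That test also called 0 of them with median-of-ratios factors, with upper-quartile factors, and with the trend on the median or the longest transcript removed, where it called 17.9%, 14.7%, 16% and 15.8% of all genes. The unadjusted p was under 0.05 for 2, 1, 0 and 0 of them. Fold changes on this scale understate the change of low genes such as Kmt2c and Phf11b. Phf11b passed the filter on low values only through its Noggin-deficient samples.

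**Figure D1:**
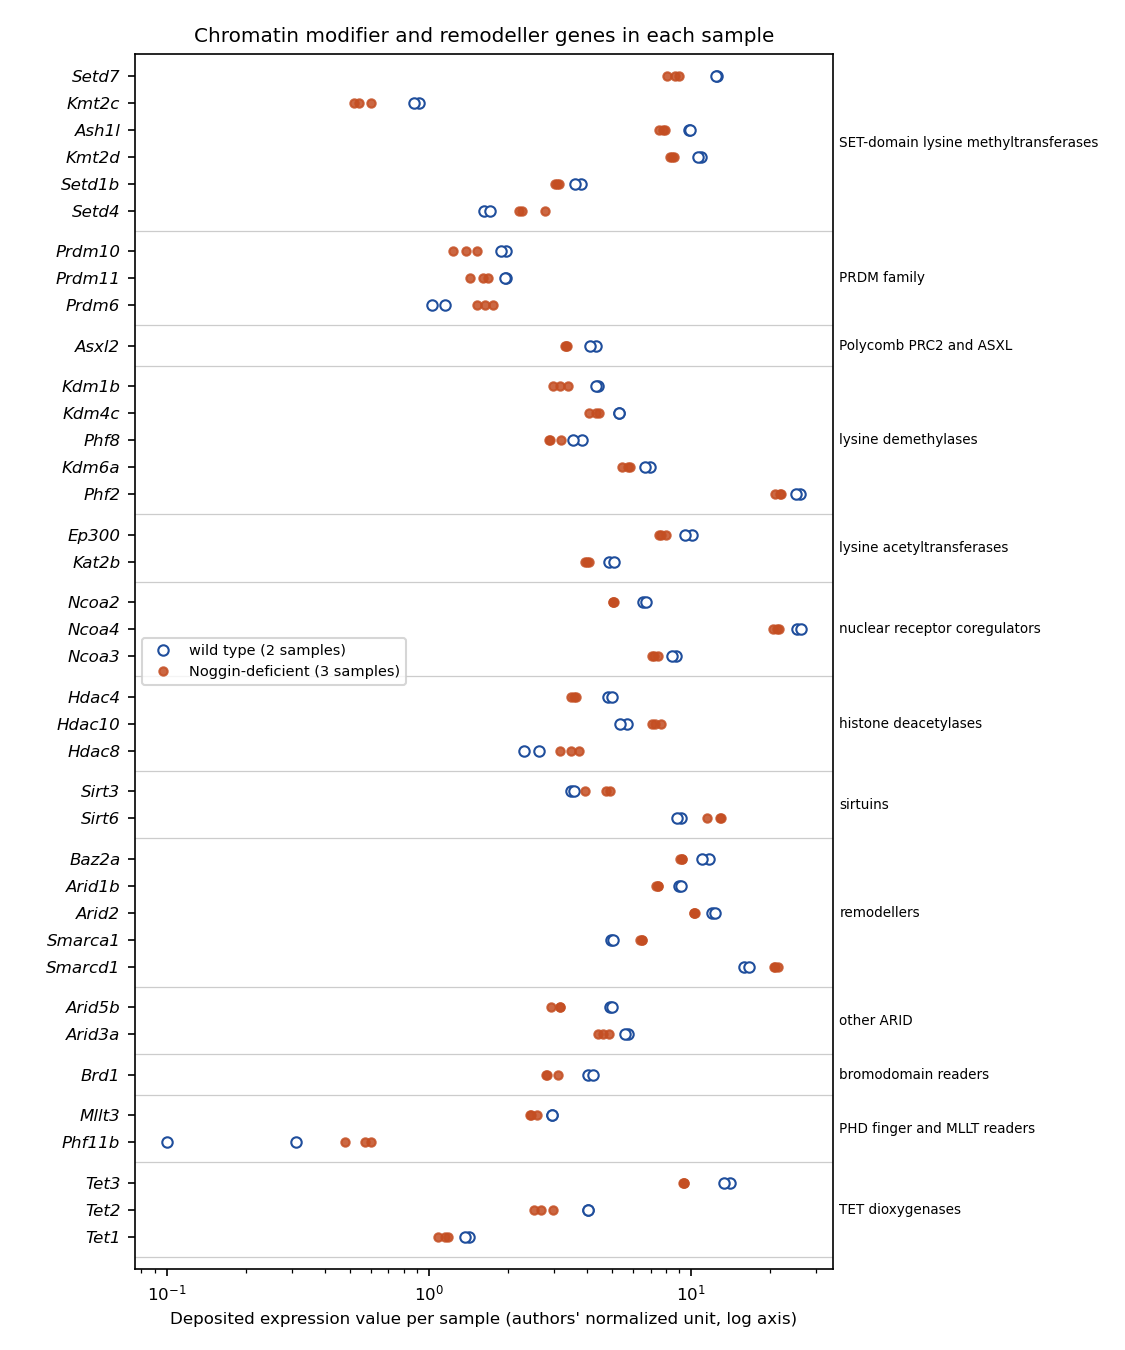
Deposited expression value of 38 of the 39 tested chromatin genes in each sample (authors' normalized unit, log axis), by class. Open circles are the 2 wild type and filled circles the 3 Noggin-deficient samples. The groups are separate for every gene drawn, with the filled circles to the left for 29 genes and to the right for 9. Of all listed genes 98.2% had no overlap between the groups.

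The direction of a chromatin gene followed the length of its transcripts. The 10 genes that were higher had a median transcript length of 1878.5 nucleotides, and the 29 that were lower had one of 6018.5. Across the 39 genes the Spearman correlation of log2 change with length was -0.67, and across 3736 tested genes with a length it was -0.28. These points share the same 5 libraries and are not independent. In the longest eighth of tested genes (transcripts from 6147 nucleotides) 93.6% of all genes were lower, and the 14 chromatin genes in it were all lower. In the seventh eighth, 86.5% of all genes and 8 of 8 chromatin genes were lower. In the third eighth (1688 to 2202 nucleotides) 43.7% of all genes were lower, and its 4 chromatin genes, Hdac8, Hdac10, Setd4 and Sirt6, were all higher. Smarca1, in the sixth eighth, was higher where 78.4% of all genes were lower, and Mllt3, in the second, was lower where 39.2% were. The place of Mllt3 rests on its median transcript of 1375 nucleotides, and its longest has 6069.

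**Figure D2:**
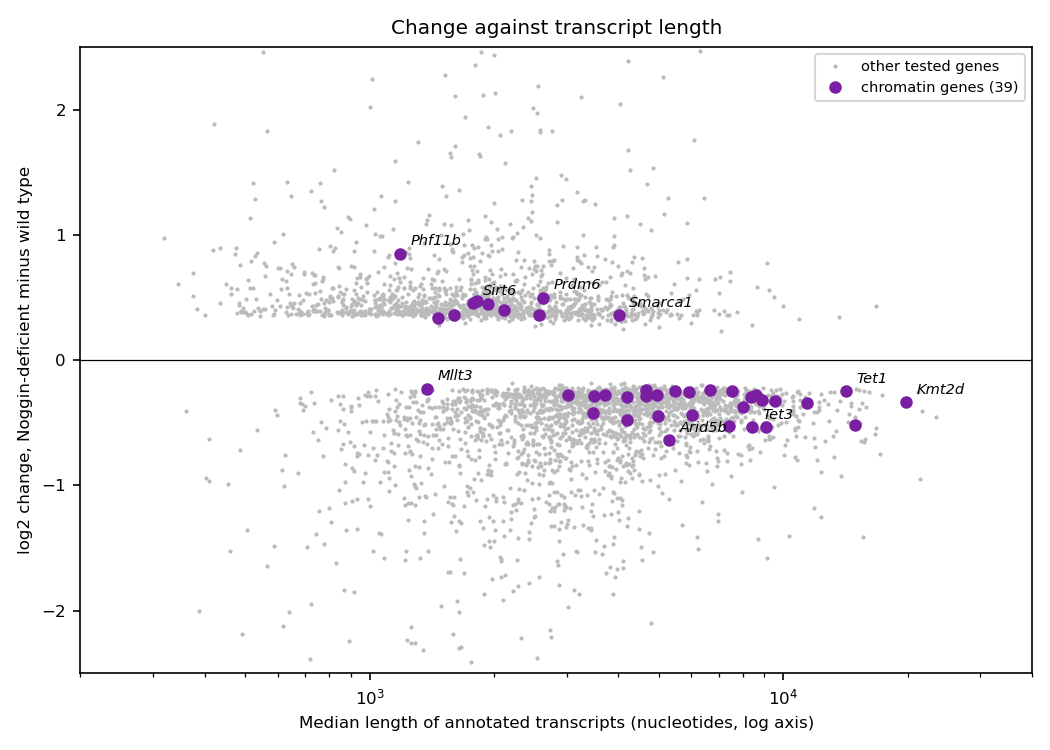
Log2 change (Noggin-deficient minus wild type) against the median length of a gene's annotated transcripts (nucleotides, log axis), for the 39 chromatin genes (large points) and the other tested genes (small points). Of 3736 genes, 72 lie outside the axes, and hardly any listed gene lies near 0. Chromatin genes above 0 sit at or below 4007.5 nucleotides.

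**Figure D3:**
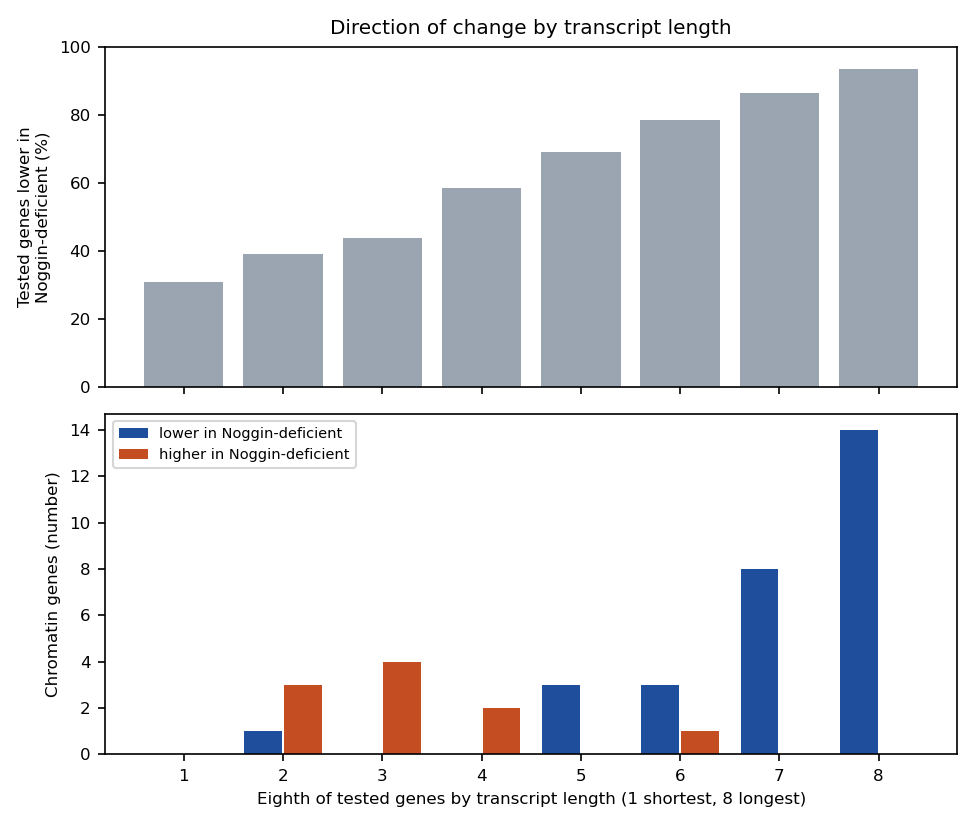
Share of all tested genes that were lower in Noggin-deficient samples (upper bars, percent) and number of chromatin genes lower or higher (lower bars), by eighth of transcript length. The share rises from 31% in the shortest to 93.6% in the longest eighth, which holds 14 of the 39 chromatin genes.

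When the trend of values on transcript length was taken out (length adjusted for), the balance of the chromatin genes turned. Their median log2 change became 0.08, with 14 called higher and 5 lower (34.3% and 35.5% of all genes then fitted). Taking the trend out also removed the offset between libraries shared by all genes, so this setting changed scaling as well as the length trend. A sign that turned once length was adjusted for therefore holds both steps. The trend was fitted over all genes. Among the 39 the Spearman correlation with length was still -0.28 after it was taken out, against 0.01 over all genes. With the longest transcript as the length, 15 were called higher and 3 lower (33.2% and 34.7% of all genes then fitted). With each library divided by its median-of-ratios factor, taken over listed genes, the median was -0.02, with 10 higher and 9 lower (38.6% and 32.2% of all). With upper-quartile factors it was -0.08, with 10 higher and 13 lower (38.5% and 40.9% of all). The median of all tested genes was 0.00, -0.03 and -0.09 with length adjusted for, with median-of-ratios and with upper-quartile factors, and -0.285 at the deposited scaling. The 10 higher genes kept their sign at each scaling and with either measure of length, and 9 of them, all but Sirt3, were called in each. These 9 include Phf11b, which passed the filter on low values only through its Noggin-deficient samples. The median-of-ratios factors were 0.925 to 0.929 for Noggin-deficient and 1.119 to 1.122 for wild type samples. The upper-quartile factors were 0.942 to 0.948 and 1.084 to 1.093. Dividing by them raises the change of every gene, so a gene above 0 could not turn there. Only the length settings could turn the 10. Of all tested genes 37.9% were called higher at the deposited scaling, and 38.6% and 38.5% with these factors. Among the lower genes 9 kept their sign: Arid5b, Tet3, Tet2, Setd7, Kmt2c, Brd1, Kdm1b, Hdac4 and Prdm10. Of these, Arid5b, Tet3 and Setd7 were called in each. For the other 20 the sign depended on the setting. Which setting describes the tissue was not tested.

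**Figure D4:**
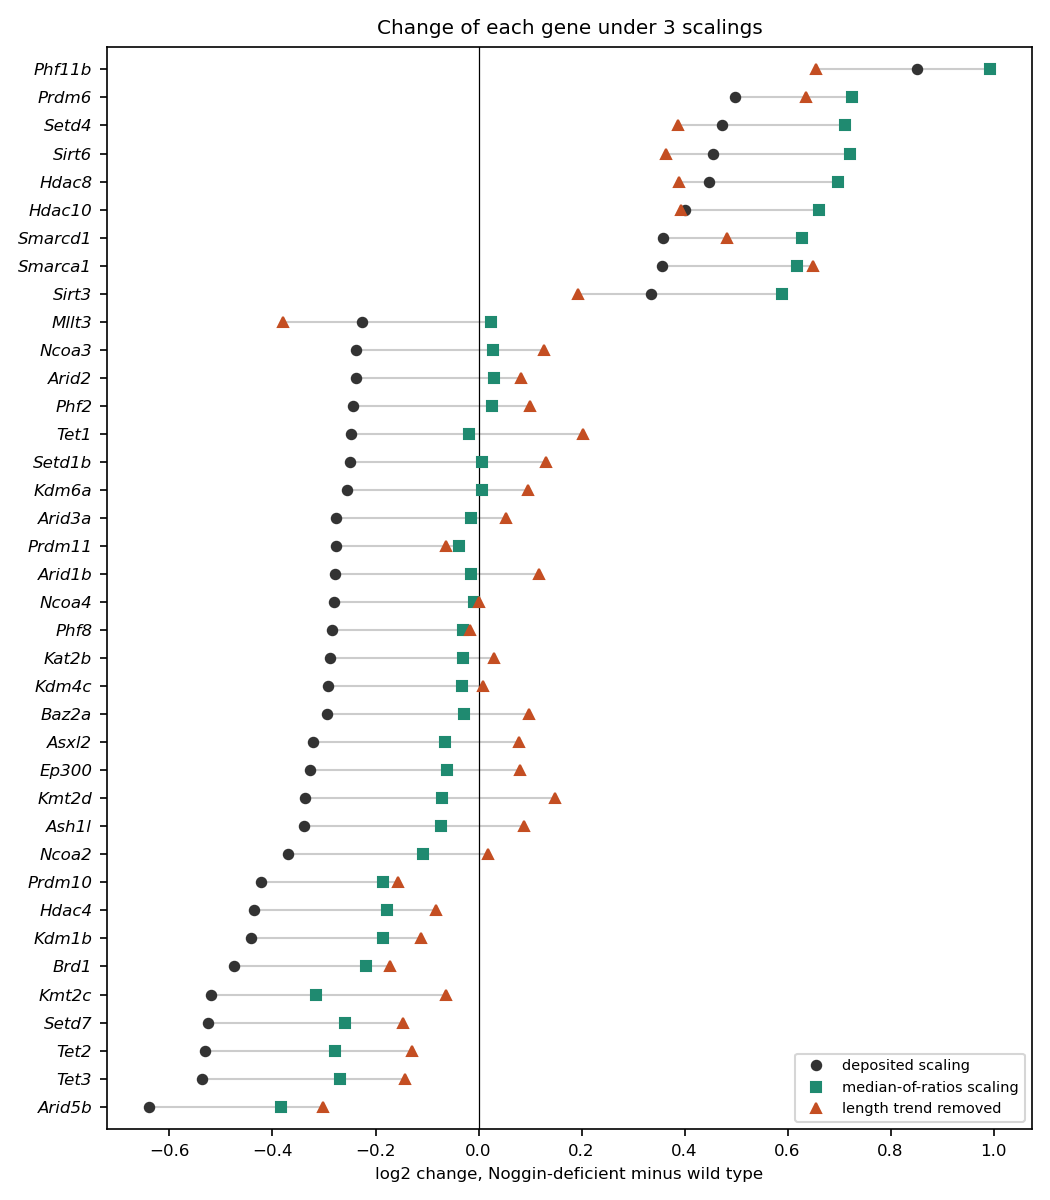
Log2 change of 38 of the 39 tested chromatin genes (Noggin-deficient minus wild type) at the deposited scaling (circles), with median-of-ratios scaling (squares) and with the length trend removed (triangles). The 9 genes at the top stay above 0 in each, and the median of all 39 moves from -0.28 to -0.02 and 0.08. Median-of-ratios scaling raises the change of every gene, so these 9 could not fall below 0 with it.

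The TET dioxygenases, which oxidise methylated cytosine in DNA, were the only listed genes of DNA methylation, and all 3 were lower. All 3 lie in the longest eighth of transcript length, where 93.6% of all tested genes were lower. Tet3 had values of 9.34, 9.39 and 9.4 in Noggin-deficient samples and 14.04 and 13.39 in wild type, a log2 difference of -0.54 (SE 0.036, limma adjusted p = 7.5e-06). The 3 Noggin-deficient values lay close together, under both wild type values. The change was -0.27 under median-of-ratios scaling and -0.14 once length was adjusted for (limma adjusted p = 0.0062). Tet2 had 2.97, 2.68 and 2.52 against 4.04 and 4.04, a log2 difference of -0.53 (SE 0.074, limma adjusted p = 0.00027), which no longer passed once length was adjusted for (-0.13, adjusted p = 0.15). Tet1 had 1.18, 1.08 and 1.15 against 1.42 and 1.37, a log2 difference of -0.25 (limma adjusted p = 0.017). Tet1 lost its call when either wild type sample was left out (adjusted p = 0.09 and 0.053), and turned to 0.20 once length was adjusted for (adjusted p = 0.051).

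Of the 6 SET-domain lysine methyltransferases 5 were lower and 1, Setd4, was higher. The 5 lie in the longest eighth of transcript length, where 93.6% of all tested genes were lower. The class median log2 change of -0.34 turned to 0.11 once length was adjusted for, beside -0.285 and 0.00 for all tested genes. Setd7, which adds a single methyl group to lysine 4 of histone H3 and to many other proteins, had values of 9.02, 8.64 and 8.1 against 12.5 and 12.42 in wild type. Its log2 change was -0.53 (SE 0.049, limma adjusted p = 3.5e-05), and it stayed called once length was adjusted for at -0.15 (adjusted p = 0.024). Kmt2c and Kmt2d are the paired enzymes that mark enhancers by methylating lysine 4 of histone H3. Kmt2c had 0.54, 0.52 and 0.6 against 0.92 and 0.88, a log2 difference of -0.52 (limma adjusted p = 0.0013) that was -0.06 once length was adjusted for (adjusted p = 0.58). Kmt2d had 8.33, 8.42 and 8.62 against 10.9 and 10.6, a log2 difference of -0.34 (SE 0.037, limma adjusted p = 7.7e-05), which turned to 0.15 once length was adjusted for (adjusted p = 0.0053). Its median transcript of 19814 nucleotides is the longest of these genes. Ash1l, a methyltransferase of lysine 36, had a log2 difference of -0.34, and Setd1b, of lysine 4, one of -0.25, and these turned to 0.09 and 0.13 once length was adjusted for. Setd4, a less studied member, had 2.78, 2.2 and 2.27 against 1.62 and 1.71, a log2 rise of 0.47 (limma adjusted p = 0.0027).

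Of the 4 tested PRDM genes, zinc finger proteins with a SET-like domain, 2 were higher and 2 lower. Prdm6, known from smooth muscle, had values of 1.53, 1.76 and 1.64 in Noggin-deficient samples and 1.03 and 1.15 in wild type, a log2 rise of 0.50 (SE 0.088, limma adjusted p = 0.00098). With length adjusted for this rise was 0.64, and it was called under each scaling. Prdm10 had 1.52, 1.24 and 1.38 against 1.97 and 1.89, a log2 difference of -0.42 that was not called under median-of-ratios scaling (-0.19, limma adjusted p = 0.11). Prdm11 had a log2 difference of -0.28 and lost its call when either wild type sample was left out (adjusted p = 0.054 and 0.0503). Prdm12, a factor of pain-sensing neurons, was under the filter, with 0.08, 0.07 and 0.03 in the Noggin-deficient samples and listed at 0 in both wild type samples. Of 7 tested neuron and Schwann cell markers 5 were higher and 2 lower in the same samples, and their part in these values was not tested.

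All 5 lysine demethylases were lower at the deposited scaling, where 60.1% of all tested genes were called lower. Their median log2 change was -0.285, the same as the -0.285 of all tested genes. It was -0.03 under median-of-ratios scaling and 0.01 once length was adjusted for, beside -0.03 and 0.00 for all tested genes. Kdm1b, a flavin-dependent demethylase of lysine 4 of histone H3, had values of 3.15, 2.96 and 3.39 against 4.42 and 4.35, a log2 difference of -0.44 (SE 0.066, limma adjusted p = 0.00039). It was -0.11 once length was adjusted for (adjusted p = 0.16). Kdm6a, which removes methyl groups from lysine 27 and works in the same complexes as Kmt2c and Kmt2d, had 5.82, 5.46 and 5.75 against 6.98 and 6.67. Its log2 change of -0.26 (limma adjusted p = 0.0012) turned to 0.01 under median-of-ratios scaling and to 0.10 once length was adjusted for. Kdm4c, Phf8 and Phf2, of the Jumonji family, had log2 changes of -0.29, -0.28 and -0.24, which were 0.01, -0.02 and 0.10 once length was adjusted for.

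Both listed lysine acetyltransferases were lower at the deposited scaling. In the eighths of transcript length that hold Kat2b and Ep300, 86.5% and 93.6% of all tested genes were lower. Ep300, a coactivator of muscle and many other transcription factors, had values of 7.7, 8 and 7.54 in Noggin-deficient samples and 10.1 and 9.48 in wild type. Its log2 change was -0.33 (SE 0.045, limma adjusted p = 0.00026). Kat2b, which acetylates MyoD, had 4.02, 4.08 and 3.94 against 4.86 and 5.06, a log2 difference of -0.29 (limma adjusted p = 0.00072). With median-of-ratios factors they read -0.06 (adjusted p = 0.25) and -0.03 (adjusted p = 0.62), and once length was adjusted for they turned to 0.08 and 0.03. Of the nuclear receptor coregulators, the p160 coactivators Ncoa2 and Ncoa3 had log2 changes of -0.37 and -0.24, which turned to 0.02 and 0.13 once length was adjusted for. Ncoa4, which despite its name is best known as the receptor that sends ferritin to autophagy, had 21.68, 20.43 and 21.32 against 25.25 and 26.18. Its log2 change was -0.28, and 0.00 once length was adjusted for (limma adjusted p = 0.98).

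Of the 3 histone deacetylases 2 were higher and 1 was lower. Hdac4, a class IIa enzyme that represses MEF2 factors in muscle, had values of 3.65, 3.56 and 3.48 against 4.81 and 5 in wild type, a log2 difference of -0.43 (SE 0.051, limma adjusted p = 0.00011). It was -0.18 under median-of-ratios scaling (adjusted p = 0.014) and -0.08 once length was adjusted for (adjusted p = 0.19). Hdac8, a class I enzyme that acts on cohesin, had 3.74, 3.15 and 3.47 against 2.3 and 2.63, a rise of 0.45 (limma adjusted p = 0.0016). Hdac10, a class IIb enzyme that acts on polyamines, had 7.68, 7.07 and 7.3 against 5.67 and 5.35, a rise of 0.40 (SE 0.051, limma adjusted p = 0.00017). With length adjusted for both rises were 0.39 and stayed called.

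Both listed sirtuins, deacetylases that depend on NAD, were higher, where 37.9% of all tested genes were called higher. Sirt6, a nuclear enzyme of telomeric chromatin and DNA repair, had values of 12.83, 12.97 and 11.52 in Noggin-deficient samples and 9.18 and 8.81 in wild type, a log2 rise of 0.46 (SE 0.056, limma adjusted p = 0.00015). The rise was 0.72 under median-of-ratios scaling and 0.36 once length was adjusted for (adjusted p = 0.00042). Sirt3, a mitochondrial enzyme, had 4.74, 3.94 and 4.92 against 3.49 and 3.57, a log2 difference of 0.33 (limma adjusted p = 0.0081), with the second Noggin-deficient sample closest to wild type. It was 0.19 once length was adjusted for and no longer passed (adjusted p = 0.087). Exons of Psmd13 and Ric8a overlap those of Sirt3 on the opposite strand, and no source used here says whether the counting used strand.

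Of the 5 remodellers 2 were higher and 3 lower at the deposited scaling. Smarca1, the ISWI-type ATPase SNF2L, had values of 6.51, 6.5 and 6.39 in Noggin-deficient samples and 4.95 and 5.04 in wild type, a log2 rise of 0.36 (SE 0.041, limma adjusted p = 0.0001). Smarcd1, the BAF60A subunit of SWI/SNF complexes, had 20.8, 21.47 and 20.71 against 15.96 and 16.68, also a rise of 0.36 (SE 0.034, limma adjusted p = 3.9e-05). With length adjusted for the rises were 0.65 and 0.48, and under median-of-ratios scaling 0.62 and 0.63. Arid1b and Arid2, DNA-binding subunits of SWI/SNF complexes, and Baz2a, which silences ribosomal DNA with an ISWI ATPase, had log2 changes of -0.28, -0.24 and -0.30. Arid2 had 10.25, 10.27 and 10.32 against 12 and 12.32, and its change was 0.03 under median-of-ratios scaling (limma adjusted p = 0.46). With length adjusted for Arid1b, Arid2 and Baz2a turned to 0.12, 0.08 and 0.10. The median of the 5 remodellers was -0.24 at the deposited scaling, 0.03 under median-of-ratios scaling and 0.12 once length was adjusted for. For all tested genes it was -0.285, -0.03 and 0.00.

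Arid5b, an ARID protein that works with the demethylase Phf2 and is known from fat and liver, had the lowest log2 change of the 39 at the deposited scaling. Its values were 3.17, 3.17 and 2.91 in Noggin-deficient samples and 4.89 and 4.99 in wild type, a log2 difference of -0.64 (SE 0.058, limma adjusted p = 3.1e-05). It stayed called at -0.38 under median-of-ratios scaling and at -0.30 once length was adjusted for (adjusted p = 0.0021). Arid3a had a log2 difference of -0.28 that was 0.05 once length was adjusted for. Brd1, the scaffold of an acetyltransferase complex, had 3.11, 2.81 and 2.79 against 4.03 and 4.22, a log2 difference of -0.47 (SE 0.065, limma adjusted p = 0.00027). It was -0.17 once length was adjusted for (adjusted p = 0.041) and -0.15 with the longest transcript as the length (adjusted p = 0.063). Asxl2, a partner of the BAP1 deubiquitinase of histone H2A, had 3.35, 3.32 and 3.3 against 4.32 and 4.11, a log2 difference of -0.32 that turned to 0.08 once length was adjusted for.

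The remaining readers had low values or an uncertain length. Mllt3, the AF9 reader of acetylated histones, had values of 2.45, 2.42 and 2.58 against 2.94 and 2.95 in wild type, a log2 difference of -0.23 (limma adjusted p = 0.0073). It was -0.38 after removal of a trend on the median transcript (1375 nucleotides) and 0.12 after removal of one on the longest transcript (6069 nucleotides). Phf11b had 0.6, 0.57 and 0.48 against 0.31 and 0.1, a log2 rise of 0.85 (SE 0.20, limma adjusted p = 0.004). The rise was 1.19 without wild type replicate 1, 0.51 without wild type replicate 2 and 0.37 with a pseudocount of 1. It was tested only because of its Noggin-deficient values, and it belongs to a cluster of near copies between which reads may be split. Phf21b was under the filter, with 0.19, 0.26 and 0.2 against 0.05 and 0.15. Exons of 15 of the 41 genes overlap another annotated gene, 2 of them (Arid2 and Ep300) on the same strand. Among the others, Kdm1b overlaps Dek, Ash1l overlaps Dap3 and Ncoa3 overlaps Sulf2 on the opposite strand.

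Other chromatin genes, not taken by the symbol patterns, also went both ways. They were subunits of chromatin complexes, histone chaperones, other methyltransferases and methyl-CpG proteins. Of 119 such genes 19 were listed and 18 tested, and 8 were called higher and 9 lower (37.9% and 60.1% of all tested genes), with a median log2 change of -0.24 that turned to 0.06 once length was adjusted for. Gatad2b, of the NuRD complex, had values of 6.77, 6.89 and 7 in Noggin-deficient samples and 10.48 and 9.97 in wild type, a log2 difference of -0.55 (SE 0.040, limma adjusted p = 1.1e-05). That fall was also -0.55 once length was adjusted for by its median transcript (2162 nucleotides), and -0.29 under median-of-ratios scaling. Over Gatad2b, Rcor1 and Rcor3 the median length-adjusted change was -0.40, and -0.14 with the longest transcript as the length. Rcor1, of the CoREST complex, had a log2 difference of -0.48, which was -0.18 once length was adjusted for. Dmap1, of the TIP60 and SRCAP complexes, had 20.1, 20.23 and 19.9 against 14.38 and 14.17, a rise of 0.48 (SE 0.029, limma adjusted p = 4.3e-06), and Suv420h2 (Kmt5c), a methyltransferase of histone H4, rose by 0.42. These rises were 0.36 and 0.43 once length was adjusted for. Of the other genes listed under an older name, Myst4 was under the filter, with 0.1, 0.18 and 0.12 against 0.18 and 0.2. The gene mKIAA1757 had 0.45, 0.45 and 0.53 against 0.74 and 0.56, a log2 difference of -0.30 (limma adjusted p = 0.044). Its values lie near the 0.5 of the filter, which both wild type values reached but only 0.53 among the Noggin-deficient ones. The median of all tested genes was -0.285.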

How the data were processed

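Per the labels, RNA of E15.5 forelimb muscle came from RNeasy Micro columns, and libraries were made with a stranded mRNA kit and 11 cycles of PCR. The authors deposited 1 table per sample with a normalized expression signal per gene. STAR 2.4.2a, DESeq2 and build mm9 stand in the submitters' processing notes without a role. The counter, annotation and kind of normalization were not given in the sources used here. Without counts, depth is unknown and no counting interval is given.

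The 41 genes were found by symbol in 4743. Values were tested with limma 3.58.1 (R 4.3.3), with an intensity trend and no covariate, on log2(value + 0.25), keeping genes with at least 0.5 in at least 2 libraries. Calls used a Benjamini-Hochberg adjusted p under 0.05 over 3913 genes. Because the listed genes look selected on the same difference, adjusted p-values and calls describe these samples and do not control false calls. The script was tested on simulated data. Transcript length was the median over GENCODE M21 basic transcripts on GRCm38, used for length and names only. The length trend was a lowess fit (span 0.4) per library, and its removal also took out each library's offset over all genes. Named genes were those of a short list of muscle-related modifiers, the 2 largest changes per class, all rises and those under the filter. Other members are named after their values were seen, and 1 higher member is counted but not reported by name here. Alternatives were other pseudocounts, filters, scalings, a 1.5-fold threshold, a replicate block, limma's robust option and leaving out each library. The members and lists were chosen with earlier results of these data known.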

Additional observations from a re-analysis of the deposited data

How the results depend on the processing

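The 29 lower calls depended on the scaling and on length. The lower calls numbered 9 with median-of-ratios factors, 13 with upper-quartile factors, 5 after removal of the length trend and 3 with the longest transcript as the length, a setting chosen after seeing the data. The higher calls numbered 10, 10, 14 and 15 under these settings. Against a 1.5-fold change 0 were lower and 0 higher. The 2 genes over 1.5-fold in size became 10, 6, 3 and 1 under the same settings, and limma's test against 1.5-fold called 0 in each, settings added for these counts after seeing the data. The median log2 change of -0.279 was -0.242 with a pseudocount of 1, -0.019 with median-of-ratios and -0.081 with upper-quartile factors, 0.083 after removal of the length trend and 0.093 with the longest transcript. Leaving out each Noggin-deficient sample in turn gave 29 lower and 9 to 10 higher calls. In the main fit 98% of all tested genes were called, so such counts say nothing particular about these genes. Leaving out each library in turn, wild type included, gave medians from -0.295 to -0.256. An arm left with 1 sample was assumed to vary like the other group. The PRDM median of 0.042 became -0.016 without wild type replicate 1 and 0.100 without wild type replicate 2. Phf11b was under the filter without Noggin-deficient replicate 1 or 2.

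Under median-of-ratios scaling the log2 change turned positive for Arid2 (0.030), Kdm6a (0.007), Mllt3 (0.024), Ncoa3 (0.028), Phf2 (0.026), Setd1b (0.006) and the remodeller median (0.030). After removal of the length trend it turned for Arid1b (0.118), Arid2 (0.083), Arid3a (0.054), Ash1l (0.089), Asxl2 (0.079), Baz2a (0.098), Ep300 (0.080), Kat2b (0.031), Kdm4c (0.008), Kdm6a (0.096), Kmt2d (0.148), Ncoa2 (0.018), Ncoa3 (0.127), Ncoa4 (0.001), Phf2 (0.099), Setd1b (0.131) and Tet1 (0.203). The class medians that turned were those of SET-domain methyltransferases (0.110), demethylases (0.008), coregulators (0.018) and remodellers (0.118). With the longest transcript it turned for Arid1b (0.137), Arid2 (0.153), Arid3a (0.053), Ash1l (0.080), Asxl2 (0.099), Baz2a (0.093), Ep300 (0.074), Kat2b (0.003), Kdm6a (0.090), Kmt2d (0.127), Mllt3 (0.123), Ncoa2 (0.015), Ncoa3 (0.138), Phf2 (0.089), Phf8 (0.070), Prdm11 (0.142), Setd1b (0.145) and Tet1 (0.189), and for the same 4 class medians (0.104, 0.070, 0.015 and 0.153). The cause was not tested.

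With the replicate number as a block there were 29 lower and 10 higher calls, and the median was -0.272. Without the block 98% of all tested genes were called. Number 3 occurs only among Noggin-deficient samples, so the block absorbs that sample. The median equals that without Noggin-deficient replicate 3 (-0.272), so the block is not a separate check. Deviations of same-numbered samples correlated at -0.126 and -0.062 over 3913 genes. With 2 wild type samples the deviations mirror each other, so these values do not settle whether a number marks a shared batch or litter, and the samples were treated as sharing only a number. Depth is unknown, and the low values of Kmt2c and Phf11b limit their precision.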
